A study of Mus musculus with 6 samples.

Results

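The genes described here are those of the insulin-like growth factor (IGF) system: the ligand IGF1, the receptors IGF1R and IGF2R, the binding proteins IGFBP2 to IGFBP7 and the adaptor IRS1. They were chosen by name, as all probes that carry 1 of these 10 gene names on the array, which gave 23 of 45281 probes. They were measured in pure cultures of PA6 cells, a murine stromal line that the methods describe as grown to confluence for the co-cultures. The cells were in serum-free medium for 3 h. The medium held neither FGF2 nor BMP4 (-GFs), 20 ng/ml of FGF2 or 10 ng/ml of BMP4, with 2 biological replicates per group. Each replicate number holds 1 untreated, 1 FGF2 and 1 BMP4 array, so that the 6 arrays can be paired by number. The sample titles do not say whether wells of the same number were cultured together. The methods list insulin in the serum-free medium of the co-cultures and describe no other serum-free medium. The -GFs wells are thus not described as free of insulin. The question was which genes of the stroma are modulated early by either factor. No group carried a genetic change, all cells came from a single line, and the methods give a lower BMP4 dose for the co-cultures than the labels give for these wells.

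IGF1 is a small secreted hormone, made by stromal cells among others, that acts through IGF1R, a receptor tyrosine kinase. IRS1 is the docking protein that the active receptor phosphorylates, and from it the signal runs to phosphoinositide 3-kinase and the kinases downstream of it. IGF2R, the cation-independent mannose 6-phosphate receptor, binds IGF2 and carries it to lysosomes without a kinase of its own. The IGFBPs are secreted proteins that bind IGFs and set how much ligand reaches the receptor. IGFBP7 differs from the others in its low affinity for IGFs.

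The arrays were alike in brightness. Their median intensity, the mean bead brightness of a probe in arbitrary units, lay between 153.4 and 168.1, and 15509 to 16459 probes per array had a detection p-value under 0.05. All 10 stromal marker genes examined, among them COL1A1, PDGFRB and CXCL12, were detected on all 6 arrays, while CDH5 and PECAM1 of the endothelium and PTPRC of blood cells were detected on none. TEK, POU5F1 and CDH1, markers of other cell types, were detected on all 6 as well. A shift in a bulk culture can come from fewer cells of a type or from less RNA per cell, which cannot be told apart here. Having only 2 arrays in each group sets how precise any difference can be.

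To show the regions upstream of the genes on which the results turn, the 250 bases before the annotated gene start are printed 5′ to 3′ on the strand of the gene, from RefSeq on GRCm38.p6. They are Igf1, the ligand, at chr10:87860861-87861110 (plus strand), Igf1r, the member that stood higher on both FGF2 arrays, at chr7:67952007-67952256 (plus strand), and Igfbp4, whose probes disagreed, at chr11:99040994-99041243 (plus strand). Capitals mark a match to 1 of 6 searched motifs.
Igf1: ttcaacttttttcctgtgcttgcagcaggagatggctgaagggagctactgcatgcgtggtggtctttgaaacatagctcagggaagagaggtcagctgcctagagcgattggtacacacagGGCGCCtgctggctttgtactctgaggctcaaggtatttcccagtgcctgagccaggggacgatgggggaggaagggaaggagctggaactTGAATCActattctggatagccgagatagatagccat
Igf1r: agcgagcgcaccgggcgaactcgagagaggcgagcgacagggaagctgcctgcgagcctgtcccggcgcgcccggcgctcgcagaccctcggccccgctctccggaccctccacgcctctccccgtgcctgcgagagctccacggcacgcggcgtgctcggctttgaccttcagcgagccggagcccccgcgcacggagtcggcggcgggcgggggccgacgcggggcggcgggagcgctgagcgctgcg
Igfbp4: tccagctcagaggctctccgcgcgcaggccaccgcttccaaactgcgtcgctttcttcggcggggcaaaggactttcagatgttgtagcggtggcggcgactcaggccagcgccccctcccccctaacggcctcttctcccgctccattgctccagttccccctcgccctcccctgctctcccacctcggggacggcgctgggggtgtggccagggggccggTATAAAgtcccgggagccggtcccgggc

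The motifs were searched on both strands in 32851 windows of this length. They were GGCGCC, bound by the SMAD proteins downstream of BMP receptors, TGANTCA as a loose form of the AP-1 site and GCGNGGGCG for EGR factors. The others were TGACGTCA for CREB, GTAAACA for FOXO and TATAAA for the TATA box. N stands for any base, so not every match to TGANTCA is a consensus AP-1 site. GGCGCC and the AP-1 letters were found in 9.59% and 6.75% of all windows, the EGR letters in 4.7%, the CREB letters in 1.55%, the FOXO letters in 3.17% and TATAAA in 12.4%. The Igf1 window held GGCGCC 128 bases and the AP-1 letters, in the form TGAATCA, 37 bases before the gene start. In the Igfbp4 window TATAAA began 28 bases before the start. The Igf1r window, of which 77.6% was G or C, held none of the 6. Of the members not printed, Igf2r held the EGR letters, Igfbp6 TATAAA on the opposite strand and Igfbp2 the AP-1 letters in 1 of its 2 windows, and Igfbp3, Igfbp5, Igfbp7 and Irs1 held none. A match is a description of letters, and whether any factor binds there was not measured.

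Of the 10 members, 6 could be tested in PA6 cells and 4 could not. A probe was tested if some group had it detected (p-value under 0.05) on both of its arrays, and 9 of the 23 probes met this rule, for IGF1, IGF1R, IGF2R, IGFBP4, IGFBP6 and IGFBP7. The other 14 did not, and 10 of these were detected on no array. The plot of all 23 probes shows this split.

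**Figure D1:**
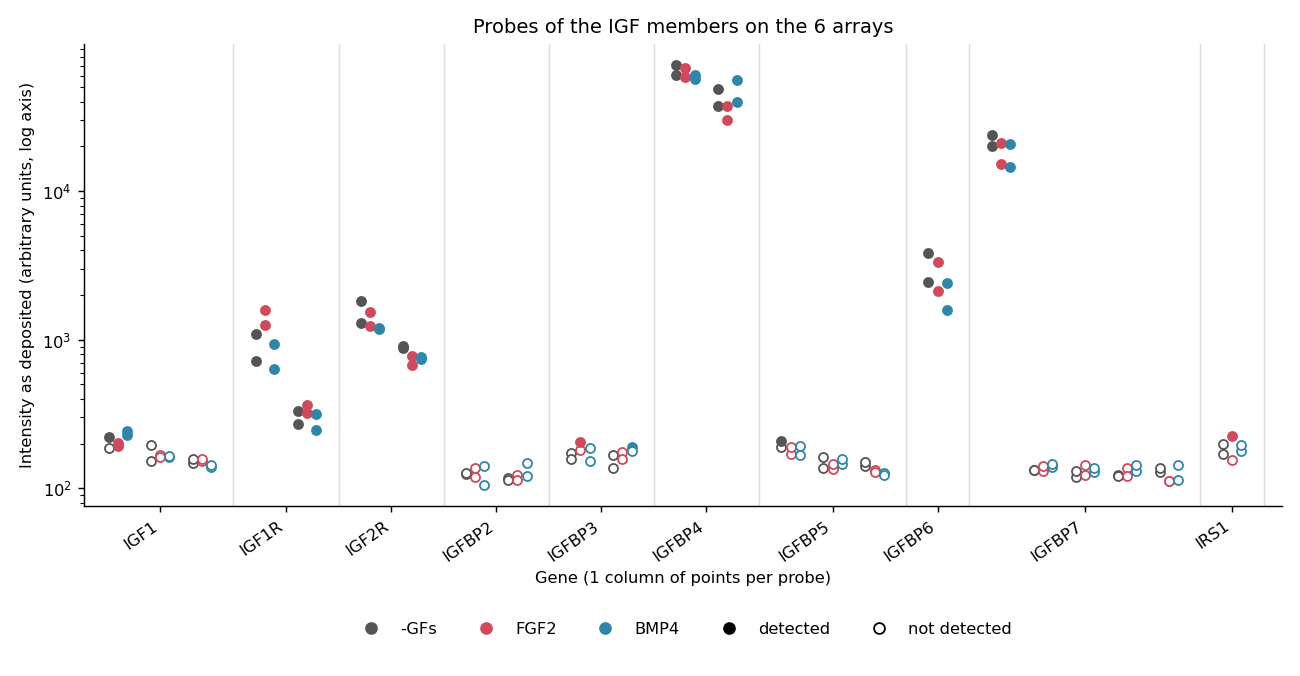
Intensity as deposited (arbitrary units, log axis) of each of the 23 probes on each array, with 1 column of points per probe, coloured by group, filled where the detection p-value was under 0.05 and open where it was not. All points of IGFBP2, IGFBP3, IGFBP5 and IRS1 lie between 105.4 and 224.7, and no group there has both points of a probe filled.

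IGF1, the ligand, was measured close to the detection limit. Its tested probe (each pair of values gives replicate 1, then replicate 2) read 220.4 and 185.9 in -GFs medium, 200.9 and 193.7 with FGF2 and 229.7 and 242.3 with BMP4, and the -GFs replicate 2 array was the 1 array on which it was not detected (detection p 0.0609). Its other 2 probes read 140.1 to 194.8 and were detected on no array. After normalization the log2 intensity of the tested probe was 7.64 ± 0.06 in -GFs medium, 7.63 ± 0.04 with FGF2 and 7.90 ± 0.01 with BMP4 (SD, n = 2 each). Both BMP4 arrays were thus above all others, and the -GFs and FGF2 arrays overlapped.

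IGF1R, the signalling receptor, stood higher on both FGF2 arrays. Its tested probe of larger mean read 1100.1 and 717.7 in -GFs medium, 1589 and 1254.6 with FGF2 and 939 and 636.6 with BMP4. The normalized log2 intensity was 9.74 ± 0.24 in -GFs medium, 10.49 ± 0.20 with FGF2 and 9.64 ± 0.48 with BMP4 (SD, n = 2 each). The FGF2 values lay above all the others, and the -GFs and BMP4 values overlapped. The second IGF1R probe read 271.9 and 333.7 in -GFs medium, 322.1 and 365.8 with FGF2 and 245.7 and 315.3 with BMP4, so that here the FGF2 and -GFs arrays overlapped. A further probe under an older IGF1R name, D930020L01, which the choice by name left out, read 190.1 to 247.8 and differed by -0.09 on the log2 scale between FGF2 and -GFs (limma adjusted p = 0.786).

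IGF2R, the scavenging receptor, was detected by both of its probes on all 6 arrays. The probe of larger mean read 1811.2 and 1288.8 in -GFs medium, 1535.2 and 1228.1 with FGF2 and 1188.5 and 1208.8 with BMP4. The normalized log2 intensity was 10.52 ± 0.16, 10.45 ± 0.18 and 10.27 ± 0.08 in the same order (SD, n = 2 each). Both BMP4 arrays were below both -GFs arrays, while FGF2 and -GFs arrays overlapped.

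Among the binding proteins, IGFBP4, an inhibitor of IGF action that proteases cleave, was read near the top of the scale. Its probe of larger mean gave 70736.3 and 60502.7 in -GFs medium, 59079.6 and 67501 with FGF2 and 56583.5 and 60258 with BMP4, where the highest intensity of any probe on an array was 65458.6 to 72645.1. Its highest reading was 1.25 times its lowest. As normalized log2 intensity it was 15.97 ± 0.0041, 15.97 ± 0.17 and 15.85 ± 0.01 (SD, n = 2 each), with both BMP4 arrays below both -GFs arrays and the FGF2 arrays on either side of them. The second IGFBP4 probe read 37356 and 48385.8 in -GFs medium, 30205.6 and 37665.1 with FGF2 and 39715.9 and 55919.5 with BMP4.

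IGFBP6, which binds IGF2 in preference to IGF1, has a single probe on the array. It read 3826.7 and 2456.8 in -GFs medium, 3358.2 and 2134.4 with FGF2 and 2416.1 and 1595.8 with BMP4. On each replicate number the order was -GFs, FGF2, BMP4 from high to low, and the replicate 2 array was below the replicate 1 array in every group. The normalized log2 intensity was 11.53 ± 0.28, 11.42 ± 0.42 and 10.99 ± 0.56 (SD, n = 2 each).

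IGFBP7 was detected by 1 of its 5 probes. That probe read 24063.5 and 20113.5 in -GFs medium, 15190 and 21253.3 with FGF2 and 14545.8 and 20883.5 with BMP4, or 14.34 ± 0.04, 14.24 ± 0.38 and 14.13 ± 0.16 as normalized log2 intensity (SD, n = 2 each). The other 4 probes read 111.2 to 145.1 and were detected on no array. After normalization the FGF2 arrays lay on both sides of the -GFs arrays.

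The 4 members without a tested probe were IGFBP2, IGFBP3, IGFBP5 and IRS1. Both probes of IGFBP2, a carrier of IGF1 and IGF2, read 105.4 to 147.1 and were detected on no array. IGFBP3, the main IGF carrier of serum, was detected only on the FGF2 replicate 2 array by 1 probe (204.6) and only on the BMP4 replicate 1 array by the other (189). IGFBP5, a binding protein that also attaches to matrix, was detected by 1 of its 3 probes and only on the -GFs replicate 2 array (207), and IRS1 only on the FGF2 replicate 1 array (224.7). No group had both arrays above the detection threshold, so each of these genes has only an upper bound and no difference between groups.

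Upon FGF2 stimulation no member was called, that is, none passed an absolute log2 fold change over 1 together with a Benjamini-Hochberg adjusted p under 0.1 over all genes tested. In limma 0 of 6 tested members were called, against 3.53% of the 11872 genes tested, and 0 passed the adjusted p alone, against 11.8%. At an unadjusted p under 0.05 limma gave 1 member, IGF1R, against 23.3% of all genes, and the methods' t-test, which the study names for measurements other than the arrays, gave 0, against 15%. IGF1R also was the 1 member whose FGF2 and -GFs arrays did not overlap with FGF2 higher, a pattern that 24.6% of all genes had, and none lay without overlap below -GFs, against 29.1%. The median absolute log2 difference was 0.08 over the 6 members and 0.24 over all genes tested.

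The IGF1R difference was 0.76 on the log2 scale (SE 0.26, 95% interval 0.14 to 1.37), a 1.69-fold higher level with FGF2, with a limma adjusted p = 0.136. It was nearly the same within each replicate number, 0.73 and 0.78. With the block, that is, with replicate number as a term of the model, the interval was 0.45 to 1.06 and the adjusted p = 0.000767, so that the gene passed the adjusted p, but not the threshold on the fold. That model passed 37.7% of all genes tested, 18.1% of them higher with FGF2. Without the block, the adjusted p was 0.0894 when either BMP4 array was left out and 0.0863 when the mean of both probes stood for the gene, at a smaller log2 difference of 0.51. The second probe by itself gave 0.26 (SE 0.22, adjusted p = 0.541 without and 0.179 with the block), with pair values of 0.40 and 0.13. Both of these probes thus were higher with FGF2 on both replicate numbers, by different amounts. The probe under the older name D930020L01 differed by -0.09.

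For the other 5 tested members the FGF2 difference was small against its error. It was -0.0047 on the log2 scale for IGF1 (95% interval -0.34 to 0.33), -0.07 for IGF2R (-0.47 to 0.33), -0.01 for IGFBP4 (-0.37 to 0.35), -0.11 for IGFBP6 (-0.87 to 0.65) and -0.10 for IGFBP7 (-0.60 to 0.40). Their limma adjusted p lay between 0.815 and 0.989. None of these 5 passed the adjusted p with the block. IGF1 was read near the detection limit and IGFBP4 near the top of the scale, so their intervals describe the measured intensity and do not bound the change in transcript.

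**Figure D2:**
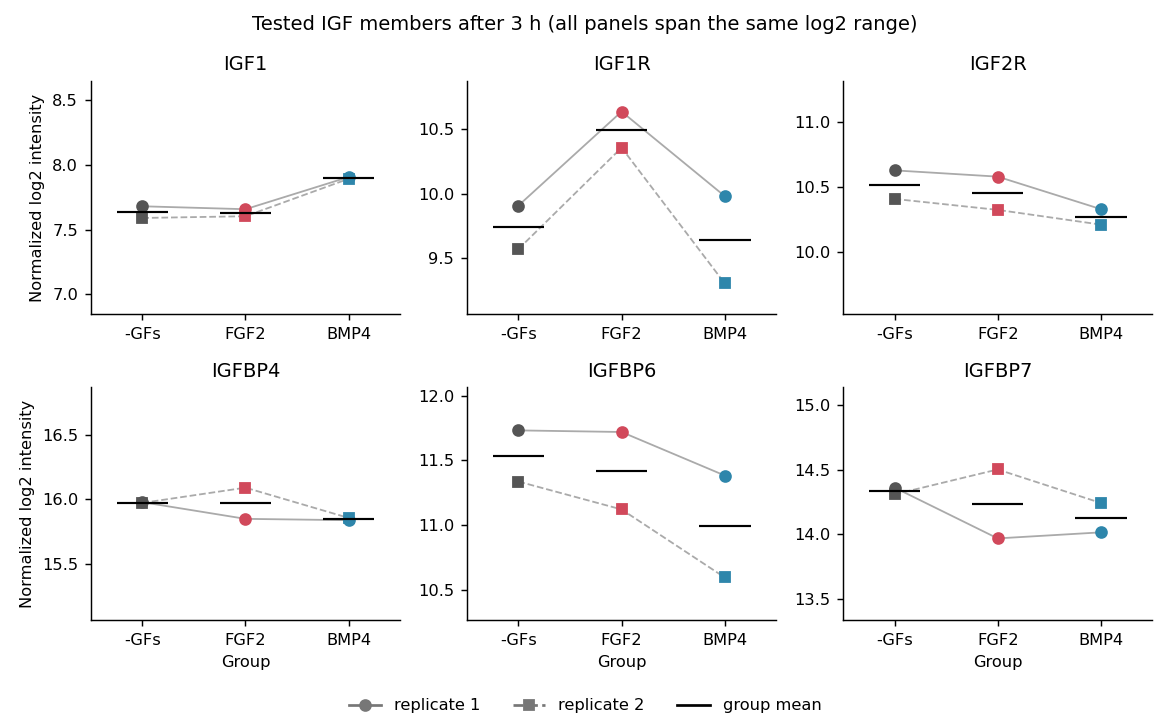
Normalized log2 intensity of the 6 tested members on each array, by group, with circles for replicate 1, squares for replicate 2, lines joining arrays of the same replicate number and bars for the group mean. The IGF1R arrays with FGF2 lie 0.73 and 0.78 above the -GFs arrays of the same replicate number, and the IGFBP6 arrays with BMP4 differ from theirs by -0.35 and -0.74.

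In response to BMP4 no member was called either. Limma gave 0 of 6, against 0.00842% of the genes tested, which is 1 gene of 11872, and no member had an unadjusted p under 0.05, against 1.81% of all genes. The methods' t-test gave 2 members at an unadjusted p under 0.05, IGF1 and IGFBP4, against 3.64% of all genes, and none after adjustment. The IGFBP4 probe was the one read near the top of the scale, with an SD of 0.0041 in -GFs medium. On the normalized scale the BMP4 and -GFs arrays did not overlap for IGF1, which was higher, against 11.2% of all genes, and for IGF2R, IGFBP4 and IGFBP7, which were lower, against 12.8%. The deposited intensities of IGFBP7 did overlap, and the second IGFBP4 probe was higher with BMP4 by 0.29. On the normalized scale the second IGF2R probe overlapped, at 9.625 and 9.553 with BMP4 and 9.618 and 9.886 in -GFs medium. Its deposited intensities did not, at 737.3 and 762.7 with BMP4 and 907.8 and 886.5 in -GFs medium. The median absolute log2 difference was 0.23 over the 6 members and 0.11 over all genes tested.

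The largest BMP4 difference of a member was that of IGFBP6, -0.55 on the log2 scale (SE 0.32, 95% interval -1.30 to 0.21, limma adjusted p = 0.999), a ratio of 0.685. The pair values were -0.35 and -0.74. With the block the interval was -0.85 to -0.24 and the adjusted p = 0.231, and no member passed, against 0.219% of all genes. Leaving out 1 array at a time gave values from -0.94 without BMP4 replicate 1 to -0.15 without BMP4 replicate 2.

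IGF1 was 0.26 higher with BMP4 (SE 0.14, 95% interval -0.07 to 0.60, limma adjusted p = 0.999), with pair values of 0.23 and 0.30. After normexp background correction (neqc) the same difference was 0.64, still with no call. The remaining members differed from -GFs by -0.10 for IGF1R (95% interval -0.71 to 0.51), -0.25 for IGF2R (-0.65 to 0.15), -0.13 for IGFBP4 (-0.49 to 0.23) and -0.21 for IGFBP7 (-0.70 to 0.29), each with an adjusted p of 0.999. The pair values had the same sign for IGF2R, -0.30 and -0.20, for IGFBP4, -0.14 and -0.12, and for IGFBP7, -0.35 and -0.07, but not for IGF1R, 0.07 and -0.27. For the second IGF2R probe they were 0.006 and -0.33.

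Between FGF2 and BMP4, 0 of 6 members were called, against 3.07% of the genes tested, and 0 passed the adjusted p alone, against 9.06%. At an unadjusted p under 0.05 limma gave 1 member, IGF1R, against 21.3%, and the methods' t-test gave 1, IGF1, against 15.2%. IGF1R was 0.85 higher with FGF2 (SE 0.26, 95% interval 0.24 to 1.46, adjusted p = 0.12), a 1.80-fold difference, with pair values of 0.65 and 1.05. IGF1, read near the detection limit, differed by -0.27 between FGF2 and BMP4 (SE 0.14, limma adjusted p = 0.328 without and 0.16 with the block). After neqc the difference was -0.66 (limma adjusted p = 0.143). With neqc and the block together, an alternative chosen after seeing the data, the limma adjusted p was 0.041. IGF1R and IGF1 were the 2 members whose FGF2 and BMP4 arrays did not overlap, a pattern of 24.1% of all genes for higher and 28.7% for lower values. With the block 2 members passed the adjusted p, against 34.1% of all genes: IGF1R (adjusted p = 0.000303) and IGFBP6, at 0.43 higher with FGF2 (adjusted p = 0.0343, pair values 0.34 and 0.53). Without the block, leaving out 1 array at a time gave values from 0.51 without BMP4 replicate 2 to 1.19 without BMP4 replicate 1 for IGF1R. For IGFBP6 the value was 0.037 and 0.82 without BMP4 replicates 2 and 1, and 0.13 and 0.73 without FGF2 replicates 1 and 2. This comparison shares its FGF2 and BMP4 arrays with the other 2.

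**Figure D3:**
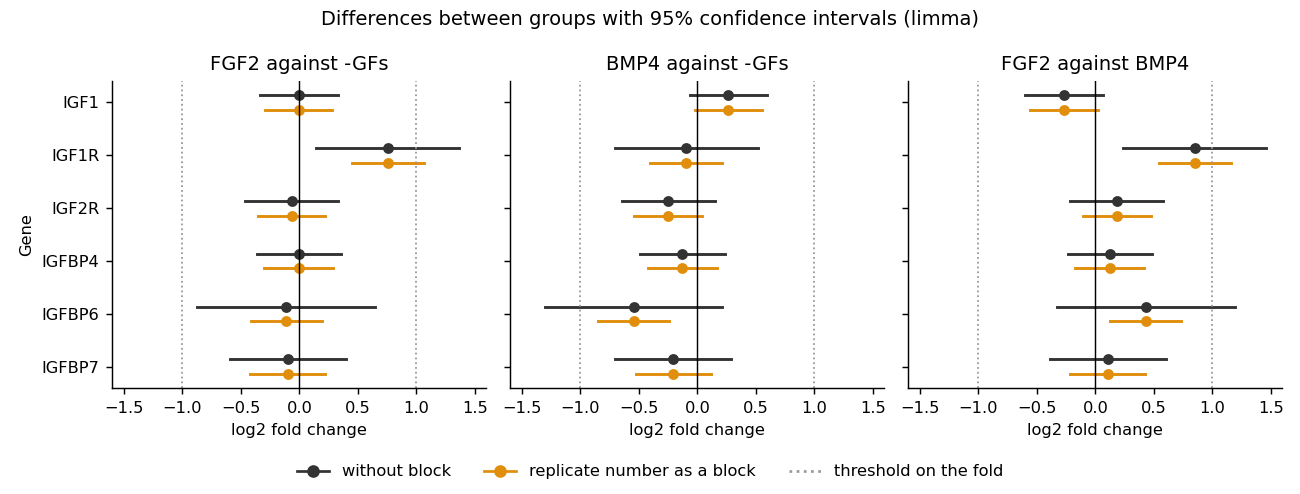
Log2 difference between groups with its 95% confidence interval from limma for the 6 tested members, without and with a block for the replicate number, in each of the 3 comparisons, with dotted lines at the fold threshold of 1 and -1. The block leaves each difference in place and narrows the interval of IGF1R with FGF2 from 0.14 to 1.37 to 0.45 to 1.06.

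The members with 2 tested probes differed in how far the probes moved alike. For IGF2R the second probe gave -0.21 with FGF2 (adjusted p = 0.483) and -0.16 with BMP4, against -0.07 and -0.25 for the probe of larger mean. For IGFBP4 the probes had opposite signs with BMP4, -0.13 against 0.29. The second IGFBP4 probe differed by -0.49 on the log2 scale between FGF2 and BMP4 (SE 0.23, adjusted p = 0.304 without and 0.0191 with the block), at pair values of -0.49 and -0.48, where the probe read near the top of the scale gave 0.12 (adjusted p = 0.711). Whether the limit of the scale plays a part in this was not tested.

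**Figure D4:**
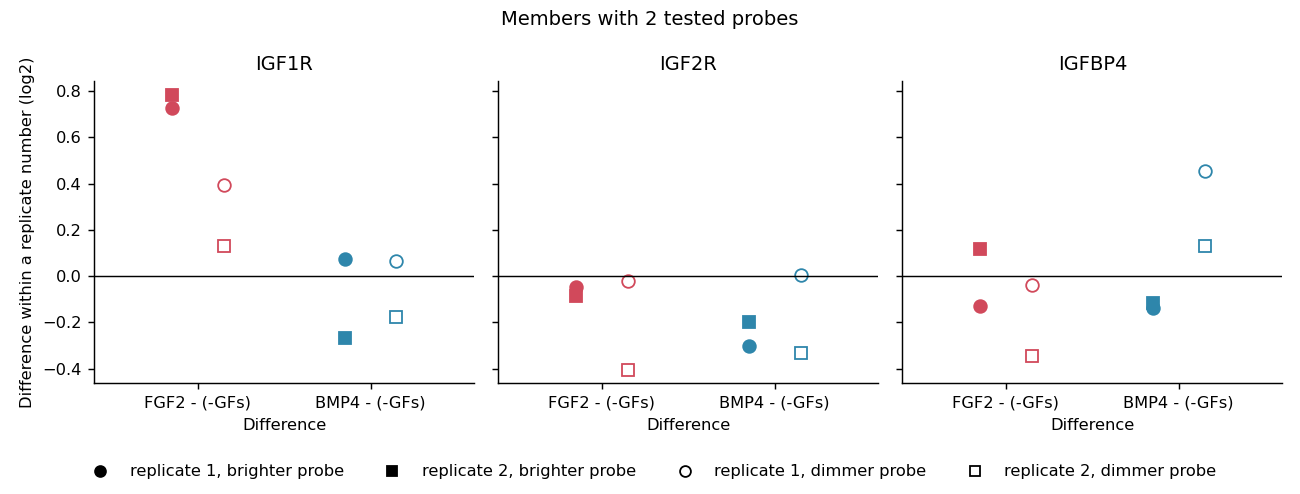
Log2 difference from the -GFs array of the same replicate number for the 3 members with 2 tested probes, filled for the probe of larger mean and open for the other. Both IGF1R probes lie above 0 with FGF2 on both replicate numbers, and the IGFBP4 probes lie on opposite sides of 0 with BMP4, at -0.14 and -0.12 against 0.45 and 0.13.

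IGFBP6 and IGF1R differed between the replicate numbers too. In the model with the block, replicate 2 differed from replicate 1 by -0.59 for IGFBP6 (adjusted p = 0.00142) and by -0.43 for IGF1R (adjusted p = 0.0147), where 28.8% of all genes tested passed. The second IGF1R probe differed by 0.36 in the opposite direction (adjusted p = 0.0329), and the second IGFBP4 probe by 0.38 (adjusted p = 0.0282). IGF2R, IGFBP7, IGF1 and IGFBP4 by its probe of larger mean did not pass, with values of -0.20, 0.24, -0.05 and 0.08. The summed intensity of 8 adipocyte markers moved with the replicate number too, from 3781.2 to 4270.7 on the replicate 1 arrays to 7029.9 to 8828.1 on the replicate 2 arrays. Of these markers 1, PPARG, was detected on all 6 arrays and FABP4 on none, and their part in the result was not tested.

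The genes whose pattern over the 6 arrays was most like that of IGF1 by Pearson's r were 2610019P18RIK (0.992), LOC100047194 (0.979) and IRF5 (0.977). These are descriptions over 6 arrays that share their normalization and fall into the same 3 groups.

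Of the other genes of the IGF pathway, a list of 47 ligands, proteases, adaptors, kinases, phosphatases and inhibitors, 46 were on the array and 37 could be tested. Upon FGF2 stimulation 3 were called higher and 2 lower, against 2.28% and 1.25% of all genes tested. The adjusted p alone was passed by 5 higher and 2 lower, against 6.03% and 5.78% of all genes, and in all by 18.9% of the list against 11.8%. The list was chosen with earlier results of these data known, so these shares only describe it. With the replicate block 10 were higher and 5 lower, against 18.1% and 19.6% of all genes. The median log2 difference was -0.02 over the list and over all genes, and the median absolute difference 0.27 against 0.24. With BMP4, 0 of 37 passed, and the median absolute difference was 0.11 in the list and over all genes.

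Among the genes called higher with FGF2 was PAPPA, the metalloproteinase that cleaves IGFBP4. Its normalized log2 intensity was 10.08 and 9.99 in -GFs medium, 10.94 and 11.13 with FGF2 and 10.67 and 10.28 with BMP4, a rise of 1.004 with FGF2 (SE 0.18, limma adjusted p = 0.0284). This lay at the threshold of 1, and with arrays scaled only to the median it was 0.92 and not called. The difference of PAPPA with BMP4 was 0.44 (adjusted p = 0.999).

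SOCS3, an inhibitor of cytokine signalling that also binds the insulin and IGF1 receptors, had the largest rise in the list. It read 10.47 and 10.44 in -GFs medium, 11.60 and 12.30 with FGF2 and 10.24 and 10.12 with BMP4 as normalized log2 intensity, a rise of 1.50 with FGF2 (SE 0.24, adjusted p = 0.0202). The FGF2 arrays differed between themselves, with pair values of 1.13 and 1.86. A pair of RNA-binding proteins named for the IGF2 message passed as well. IGF2BP2 rose by 1.18 (SE 0.21, adjusted p = 0.0269), from 11.21 and 11.02 to 12.41 and 12.19. IGF2BP1 was 0.74 higher (adjusted p = 0.0441), short of the fold threshold, and its other probes gave 0.83 and 0.60. IGF2BP3, of the same family, did not pass, at 0.21 (adjusted p = 0.670), and its other probes gave 0.04 to 0.13.

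The genes called lower with FGF2 lie downstream of the receptor. PIK3R3, a regulatory subunit of phosphoinositide 3-kinase, fell from 11.22 and 10.76 in -GFs medium to 9.76 and 9.50 as normalized log2 intensity, a difference of -1.36 (SE 0.21, adjusted p = 0.0176), and its second probe gave -1.44. The BMP4 arrays were at 11.14 and 10.93. GAB1, a docking protein of receptor tyrosine kinases, differed by -1.06 (SE 0.18, adjusted p = 0.0231), from 10.92 and 11.28 to 9.94 and 10.14. EIF4EBP1, a repressor of translation that mTOR inactivates, was 0.56 higher (adjusted p = 0.0923), short of the fold threshold. Its limma adjusted p was 0.17 after neqc, 0.176 with median scaling and 0.104 for probes detected on at least 1 array. It was 0.0937 under quantile normalization, 0.0947 for probes detected on all 6 arrays and 0.0066 with the block. PTPN1, a phosphatase of the insulin and IGF1 receptors, was 1.05 higher with an adjusted p = 0.102, and 2.73e-05 with the block.

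IGF2, the other ligand, was not called. It read 14.70 and 15.10 in -GFs medium, 14.55 and 14.88 with FGF2 and 14.76 and 15.05 with BMP4 as normalized log2 intensity, a difference of -0.19 with FGF2 (adjusted p = 0.653). The adaptor IRS2 differed by -0.01 with FGF2 (adjusted p = 0.994), with values of 9.33 and 10.02 in -GFs medium and 9.34 and 10.00 with FGF2. INSR, the insulin receptor, measured under its older name D630014A15RIK, differed by -0.37 (adjusted p = 0.574 without and 0.08 with the block), and its second probe by -0.04.

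Between FGF2 and BMP4, SOCS3 was called higher with FGF2 (1.77) and PIK3R3 (-1.40) and GAB1 (-1.04) lower, against 2.03% and 1.04% of all genes. The adjusted p alone was passed by 4 genes of the list higher and 2 lower, against 4.84% and 4.22%, and in all by 16.2% of the list. The calls against -GFs rested on few arrays. Without FGF2 replicate 2 none of the 5 was called, with adjusted p from 0.111 for SOCS3 to 0.219 for PAPPA. Without FGF2 replicate 1 SOCS3 was the 1 gene still called, and without -GFs replicate 2 SOCS3 and PIK3R3 were. The methods' t-test called none of the 5, with adjusted p from 0.262 for PAPPA to 0.333 for SOCS3.

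**Figure D5:**
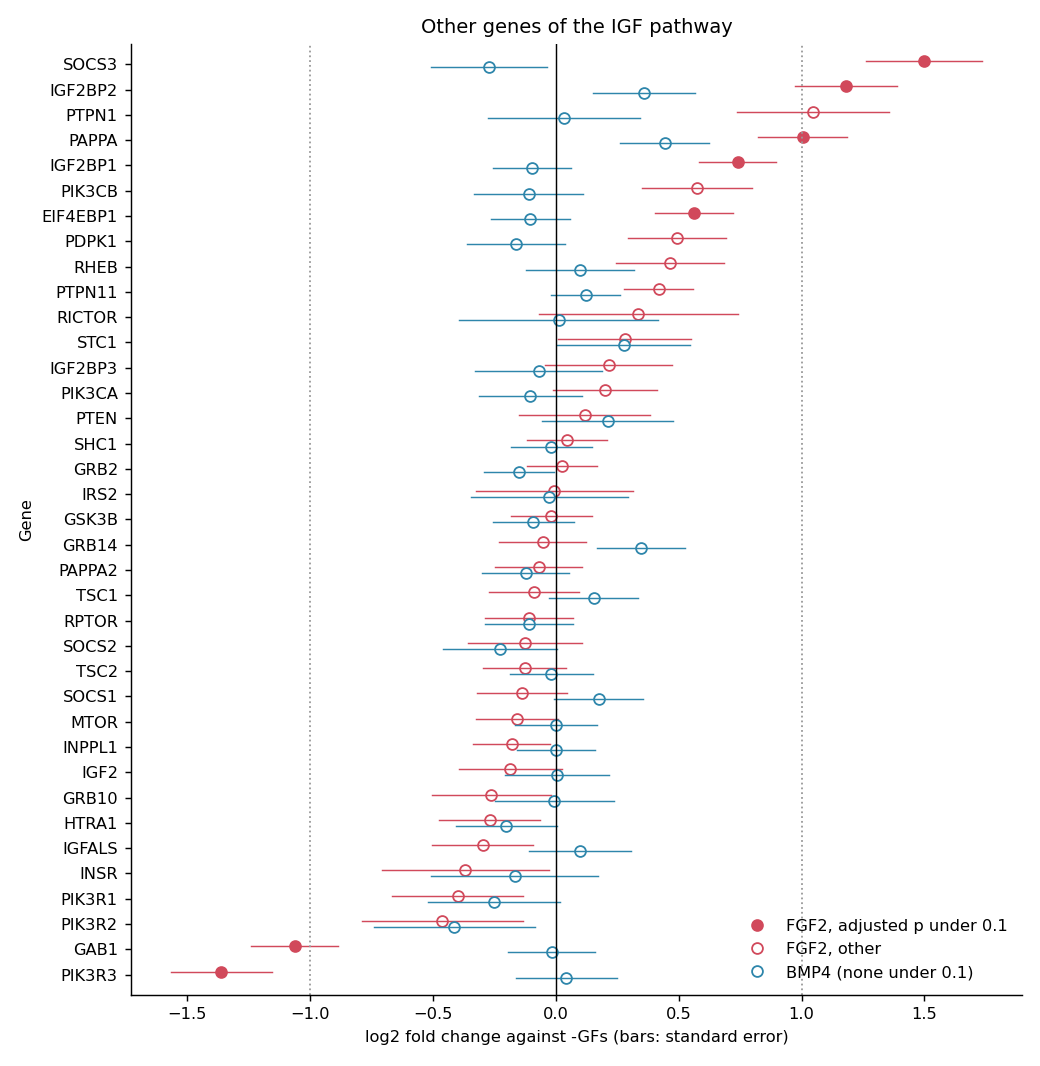
Log2 difference from -GFs with its standard error for the 37 tested genes of the wider IGF pathway, with FGF2 in red, filled where the limma adjusted p was under 0.1, and BMP4 in blue, and dotted lines at the fold threshold of 1 and -1. SOCS3 at 1.50 and PIK3R3 at -1.36 are the outermost FGF2 values, and no BMP4 value passed.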

How the data were processed

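RNA of each PA6 well was measured on 1 Illumina MouseWG-6 v2.0 array. The values the authors deposited are intensities on a linear scale, not yet normalized between arrays, and each comes with a detection p-value. The labels name GenomeStudio 2011.01. The deposited table also holds 9 columns without a heading and 6 leftover lines, which were not used. The array annotation supplies the gene names, of which 16125 of 30854 equal a current RefSeq symbol.

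The methods name cubic spline normalization, which was rebuilt in R 4.3.3 with 452 quantiles per array, followed by log2. The detection filter kept 16111 probes, those under 0.05 on both arrays of some group, and each of 11872 genes was represented by its probe of largest mean. Where a gene has several probes, this choice can change its value, so for the genes named in the results the others are given too. PDPK1 of the wider list did not pass by its probe of largest mean, at 0.49 with FGF2 (limma adjusted p = 0.198). Its second probe was 0.61 higher with FGF2 (limma adjusted p = 0.0848 over all probes). The model was fitted in limma 3.58.1 (lmFit, eBayes) over the 6 arrays and 3 groups with no block, which leaves 3 residual degrees of freedom. P-values from limma were adjusted by Benjamini-Hochberg across all genes tested, and values of second probes come from the same fit over all 16111 probes. The scripts were tested on simulated data. The sample titles give each replicate number to 1 array of each group and do not state a shared culture. The deviations of arrays with the same number from their group means correlated over genes at 0.58 to 0.74, a value taken from these same data. The replicate number was also fitted as a block.

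The text names every member, every gene of the wider IGF list that was called or passed the adjusted p, and the genes most like IGF1 in pattern. PTPN1, IGF2, IRS2, INSR, IGF2BP3 and PDPK1 were named outside this rule, after their values were seen. The members and lists were chosen with earlier results of these data known. Other normalizations, filters, probe choices and tests, and leaving out each array, were tried as alternatives. The methods' t-test among them is unpaired and is named in the methods for other measurements, not for the arrays. The co-cultures were not analysed here. A single gene that belongs to the wider pathway was left out of the list and is not reported here.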

Additional observations from a re-analysis of the deposited data

How the results depend on the processing

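The count of called members stayed at 0 in all 3 comparisons under quantile normalization, neqc, median scaling, the 4 other detection filters, the mean of the probes, every probe, the replicate block, trend and robust eBayes, both other call rules, the methods' t-test and leaving out each array. Alternatives chosen after seeing the data included neqc together with the replicate block, where the count stayed at 0. They also included the replicate block with an adjusted p under 0.1 whatever the fold. Under this last rule the count was 1 with FGF2 against -GFs and 2 with FGF2 against BMP4. That rule passed 37.7% and 34.1% of all genes tested in these comparisons. Differences near 0 changed sign. With arrays scaled to the median, PIK3R3 with BMP4 became -0.046, and with the mean of the probes it became -0.039, while IGFBP4 with BMP4 became 0.082 and IGFBP4 between FGF2 and BMP4 -0.18. The mean of the probes averages 2 tested probes, which had opposite signs in these cases. With BMP4 they gave 0.043 and -0.12 for PIK3R3 and -0.13 and 0.29 for IGFBP4. Between FGF2 and BMP4 the IGFBP4 probes gave 0.12 and -0.49. The cause of the change under median scaling was not tested. Leaving out 1 array at a time gave FGF2 differences of -0.0499 to 0.0405 for IGF1, -0.20 to 0.062 for IGF2R, -0.41 to 0.19 for IGFBP6, -0.13 to 0.12 for IGFBP4 and -0.37 to 0.17 for IGFBP7. It gave BMP4 differences of -0.43 to 0.24 for IGF1R, -0.20 to 0.17 for GAB1 and -0.19 to 0.27 for PIK3R3, and -0.16 to 0.37 for IGFBP7 between FGF2 and BMP4. Where an array was left out, the lone array of its group was assumed to vary like the other groups. The replicate block changed no call at the study's threshold among the members; in the wider list it added PTPN1. The slide as a block was not run, since the table names no slide. Signals close to the detection limit, such as that of IGF1, limit how small a change could be measured.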
